A study of Mus musculus with 16 samples.

Results

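The genes described here encode pore subunits of inward rectifier potassium channels: Kcnj2, Kcnj3, Kcnj4, Kcnj6, Kcnj8, Kcnj9, Kcnj10, Kcnj11, Kcnj13 and Kcnj16. They were chosen by name and are 10 of the 15 Kcnj genes in the files, among 39179 genes measured. All 10 passed the filter on low counts. RNA was sequenced from material labelled as hippocampal or cortical neurons of adult mice of strain B6.129S6.SvEvTac. All mice carry the label TERT-AD, and the tamoxifen groups were given tamoxifen in a design meant to activate Tert, the catalytic subunit of telomerase, while the controls were given vehicle. The 4 groups, of 4 libraries each, were hippocampus with tamoxifen, hippocampus control, cortex with tamoxifen and cortex control. The labels used here do not name the alleles, the promoter that drives the transgene, the number of animals or how neurons were isolated.

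Neighbouring libraries (1 with 2, 3 with 4) of each group were far more alike than other libraries of that group. After counting error was taken off, a gene varied by 2.62 to 3.77% between such neighbours and by 6.0 to 22.1% between other libraries of a group. They were therefore added, giving 8 samples, A and B in every group, with 83527470 to 108293362 counts in genes. Nothing in the labels says that samples came from separate animals, so p-values measure the spread between these samples, which may be technical. The material was not neurons alone. Over the 8 samples, 10 neuron markers summed to 2074 to 4642 CPM (counts scaled to a common sum over all genes), 11 astrocyte markers to 6703 to 11924 CPM and 10 oligodendrocyte markers to 24165 to 72786 CPM. Cortical tamoxifen sample B stood apart, with the highest neuron sum (4642 CPM), the lowest oligodendrocyte sum (24165 CPM) and a mitochondrial share of 20.4%, where the other 7 samples had 24.0 to 31.5%. Choroid plexus markers summed to 48.3 and 8396 CPM in hippocampal tamoxifen samples A and B, 17673 and 8351 CPM in hippocampal controls, 5178 and 6.09 CPM in cortical tamoxifen samples, and 962 and 6.46 CPM in cortical controls. Tert itself was at 1.04 and 2.16 CPM in hippocampal tamoxifen samples, against 1.47 and 3.89 CPM in controls, and at 1.04 and 2.34 CPM in cortical tamoxifen samples, against 0.473 and 1.11 CPM in controls. The groups overlapped for Tert in both regions, and whether transgene transcripts are counted under Tert is not given in the sources used here.

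Inward rectifier channels pass potassium more easily into the cell than out of it, and they hold the resting potential near the potassium equilibrium. Each channel is a tetramer of Kcnj-encoded subunits. In brain, Kcnj10 (Kir4.1) is the main potassium conductance of astrocytes and oligodendrocytes, and Kcnj16 (Kir5.1) joins it in heteromers that respond to pH. Kcnj3, Kcnj6 and Kcnj9 encode the G protein-gated GIRK subunits, which slow neuronal firing when inhibitory receptors are active. Kcnj2 and Kcnj4 encode strong rectifiers of the Kir2 group, Kcnj8 and Kcnj11 the pores of ATP-sensitive (KATP) channels, and Kcnj13 (Kir7.1) a weakly rectifying channel of transporting epithelia such as the choroid plexus.

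Gene positions and exon lengths are those the files give, on mm10. The astroglial genes are Kcnj10 (ENSMUSG00000044708, chr1:172341210-172374085, + strand) and Kcnj16 (ENSMUSG00000051497, chr11:110968033-111027968, + strand). The GIRK genes are Kcnj9 (ENSMUSG00000038026, chr1:172321033-172329263, - strand), Kcnj3 (ENSMUSG00000026824, chr2:55435970-55598145, + strand) and Kcnj6 (ENSMUSG00000043301, chr16:94749266-94997696, - strand). The Kir2 genes are Kcnj4 (ENSMUSG00000044216, chr15:79483718-79505241, - strand) and Kcnj2 (ENSMUSG00000041695, chr11:111066164-111076821, + strand). The KATP pore genes are Kcnj8 (ENSMUSG00000030247, chr6:142564939-142571356, - strand) and Kcnj11 (ENSMUSG00000096146, chr7:46098725-46099897, - strand), and the epithelial gene is Kcnj13 (ENSMUSG00000079436, chr1:87386363-87394729, - strand).

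The upstream sequences of 4 of these genes are shown because they belong to the astroglial pair, to the neuronal neighbour of Kcnj10 and to the gene whose level varied most between samples of a group. Kcnj9 and Kcnj10 are neighbours on chromosome 1, transcribed away from each other with 11.9 kb and no other gene of the files between them. Each sequence is the 250 bases before the RefSeq start, on the gene's strand (GRCm38.p6, coordinates as in mm10). Capitals mark matches, on either strand, to the TATA box (TATAAA), the CCAAT box (its own name), the GC box (GGGCGG) and the Otx core (TAATCC). No matches overlapped.
Kcnj10 (chr1:172340960-172341209, + strand): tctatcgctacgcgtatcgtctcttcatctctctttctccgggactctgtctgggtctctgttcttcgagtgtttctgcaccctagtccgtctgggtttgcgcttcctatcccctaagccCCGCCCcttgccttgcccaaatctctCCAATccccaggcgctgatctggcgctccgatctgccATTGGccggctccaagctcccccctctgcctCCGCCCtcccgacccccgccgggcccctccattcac
Kcnj9 (chr1:172329323-172329572, - strand): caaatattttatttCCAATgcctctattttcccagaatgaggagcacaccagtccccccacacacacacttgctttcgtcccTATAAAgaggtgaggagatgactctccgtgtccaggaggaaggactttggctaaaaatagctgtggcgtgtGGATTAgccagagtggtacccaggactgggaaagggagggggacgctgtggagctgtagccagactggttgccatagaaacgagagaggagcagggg
Kcnj16 (chr11:110967783-110968032, + strand): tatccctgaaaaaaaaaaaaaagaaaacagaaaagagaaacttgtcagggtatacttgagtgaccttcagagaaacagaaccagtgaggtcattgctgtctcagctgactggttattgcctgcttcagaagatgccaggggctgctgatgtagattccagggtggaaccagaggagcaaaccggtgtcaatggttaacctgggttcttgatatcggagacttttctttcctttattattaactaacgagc
Kcnj13 (chr1:87394730-87394979, - strand): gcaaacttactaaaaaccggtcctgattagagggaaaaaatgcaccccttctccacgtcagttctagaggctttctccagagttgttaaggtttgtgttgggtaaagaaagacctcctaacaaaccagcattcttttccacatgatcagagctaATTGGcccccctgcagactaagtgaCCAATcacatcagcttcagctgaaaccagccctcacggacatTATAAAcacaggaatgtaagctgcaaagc

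The Kcnj10 window was 62% G and C, the Kcnj9 window 52%, the Kcnj13 window 45.2% and the Kcnj16 window 42.8%, against a median of 52.4% over 32851 RefSeq windows of this length. The Kcnj10 window holds 2 GC boxes, 2 CCAAT boxes and no TATA box. The Kcnj13 window holds 1 TATA box and 2 CCAAT boxes, the Kcnj9 window 1 match each to the TATA box, the CCAAT box and the Otx core, and the Kcnj16 window none of the 4 motifs. Of all windows, 12.4% hold the TATA box, 33.8% the CCAAT box, 32.7% the GC box and 6.25% the Otx core. Kcnj16 has 4 RefSeq starts, and the one at the files' gene start is shown. Matches describe letters only. RefSeq windows were found for 9 of the 10 genes.

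Kcnj10 had the highest level of the family in every sample. Per kb of exon it stood at 65.3 to 89.1 CPM over the 8 samples, which was 44.0 to 66.0% of the summed per-length level of the 10 genes. The astroglial subunits Kcnj10 and Kcnj16 together made up 52.5 to 80.4% of that sum, the 3 GIRK genes 3.68 to 17.3%, Kcnj2 with Kcnj4 4.15 to 24.1%, Kcnj8 with Kcnj11 3.74 to 7.42%, and Kcnj13 between 0 and 30.3%. In the hippocampal controls the order per length was Kcnj10, Kcnj13, Kcnj16, Kcnj4, Kcnj9, Kcnj11, Kcnj8, Kcnj3, Kcnj2 and Kcnj6, and the values of neighbours in this order overlapped only for Kcnj3 and Kcnj2. In the cortical controls it was Kcnj10, Kcnj16, Kcnj4, Kcnj9, Kcnj11, Kcnj8, Kcnj3, Kcnj13, Kcnj2 and Kcnj6, where Kcnj8 and Kcnj3, Kcnj3 and Kcnj13, and Kcnj13 and Kcnj2 overlapped. In the hippocampal tamoxifen group Kcnj10 led Kcnj16, and the next 5 (Kcnj13, Kcnj4, Kcnj9, Kcnj11 and Kcnj8) each overlapped a neighbour. In the cortical tamoxifen group Kcnj10 was followed by Kcnj4, Kcnj9 and Kcnj16, whose values overlapped.

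**Figure D1:**
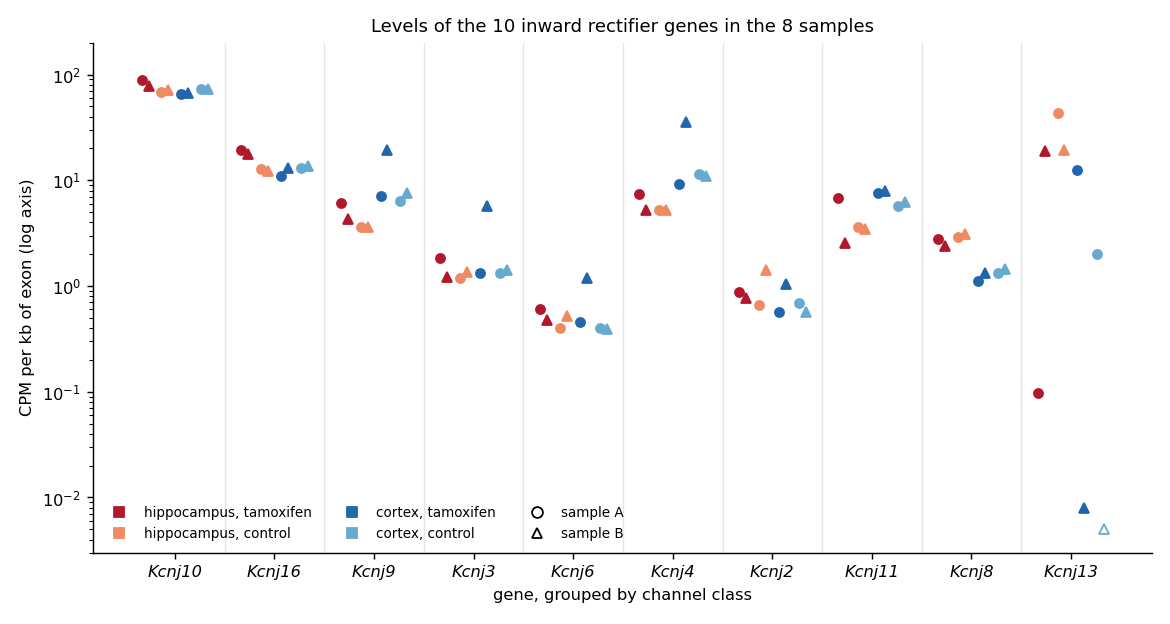
Level of each gene per kb of exon (CPM per kb, log axis) in the 8 samples, coloured by group, with circles for sample A and triangles for sample B; the open triangle for Kcnj13 is a value of 0 drawn at the bottom. Kcnj10 lies highest at 65.3 to 89.1 CPM per kb and Kcnj13 spans the widest range.

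Across the 5 contrasts, 0 of the 10 genes passed the edgeR quasi-likelihood test at an adjusted p of 0.05. For tamoxifen against control in hippocampus the share called over all 18074 genes was 0%, in cortex 0%, and for the difference of these effects 0%. For hippocampus against cortex it was 1.12% in the tamoxifen groups and 6.19% in the controls. At an unadjusted p under 0.05 the genes were Kcnj16 in hippocampus (3.61% of all genes), Kcnj16 and Kcnj6 in cortex (4.97%), and Kcnj10 and Kcnj16 for the difference (5.43%). They were 5 genes between regions in the tamoxifen groups (21.6%) and 6 in the controls (27.6%). Without the count filter edgeR also called 0 of 10 in cortex, where 0.00372% of all genes were called. DESeq2 called 0 of 10 in hippocampus (0.0335% of all genes), 0 in cortex (0.0376%), 0 for the difference (0.0112%), and 5 between regions in both the tamoxifen groups (11.1%) and the controls (16.8%). Samples of both groups did not overlap for 3 genes higher (14.6% of all genes) and 2 lower (23.6%) with tamoxifen in hippocampus, and for 2 higher (20.8%) and 3 lower (6.29%) in cortex. Counts scaled by TMM, which the tests use, and by the sum over genes differ: scaling to the sum moved the median log2 difference of all genes by -0.03 in hippocampus, 0.21 in cortex, -0.24 for the difference, 0.14 between regions in the tamoxifen groups and 0.38 in the controls. Differences below use TMM unless stated, and levels are CPM.

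**Figure D2:**
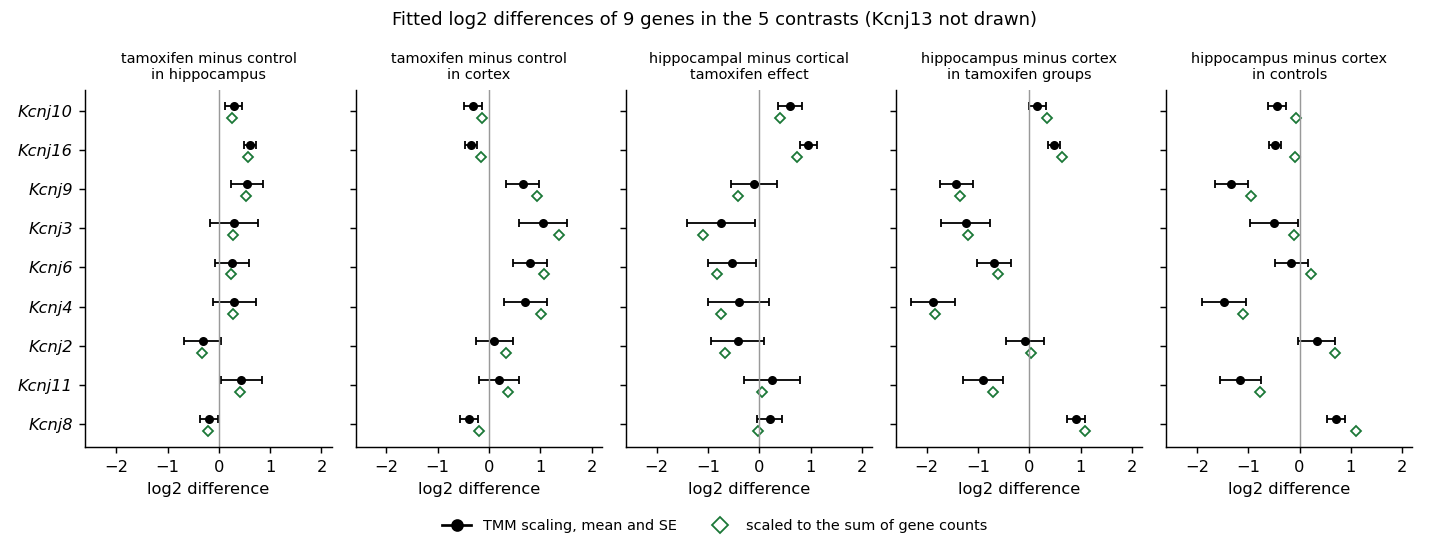
Fitted log2 difference of 9 genes in the 5 contrasts, with black circles and bars for the TMM-scaled value and its standard error and green diamonds for counts scaled to the sum over genes; Kcnj13, with standard errors of 2.82 to 4.2, is not drawn. Kcnj10 and Kcnj16 lie right of 0 in hippocampus and left of 0 in cortex, and Kcnj4 and Kcnj9 lie left of 0 in both region contrasts.

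Kcnj10 and Kcnj16 had opposite signs in the regions. Both stood higher in the hippocampal samples given tamoxifen than in their controls, and lower in the cortical ones. Neither region's difference passed the test. Kcnj10 was at 482 and 421 CPM in hippocampal tamoxifen samples, against 369 and 386 CPM in hippocampal controls. It was at 353 and 362 CPM in cortical tamoxifen samples, against 395 and 392 CPM in cortical controls. The groups did not overlap in either region. In CPM the hippocampal tamoxifen samples were the 2 highest of the 8. This ranking depends on the scaling. TMM factors were 1.11 and 1.06 in these samples and 0.866 and 0.839 in cortical controls, so under TMM the cortical controls stood highest. The log2 difference was 0.29 in hippocampus (SE 0.17, edgeR adjusted p = 1) and -0.31 in cortex (SE 0.17, edgeR adjusted p = 0.83), and 0.26 and -0.14 when scaled to the sum over genes. In cortex it was -0.11 without tamoxifen sample B, and -0.54 without tamoxifen sample A, where it was called (edgeR adjusted p = 0.045, with 10.7% of all genes called, and 0.00534% without sample B). Without sample A the cortical tamoxifen arm is sample B alone, the one that stood apart, and the spread in this and the other such calls comes from the other groups, whose spread it is assumed to share.

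Kcnj16 was at 76.6 and 69.9 CPM in hippocampal tamoxifen samples, against 50.7 and 47.7 CPM in hippocampal controls. Cortical levels were 42.9 and 51.1 CPM in tamoxifen samples, against 51.3 and 53.6 CPM in controls. Again no group overlapped its control. In cortex the nearest values were 51.1 and 51.3 CPM, and single libraries overlapped, with 1 tamoxifen library at 53.4 CPM and a control library at 51.2 CPM. The hippocampal tamoxifen samples lay above all 6 others. The log2 difference was 0.61 in hippocampus (SE 0.12, unadjusted p = 0.0014, edgeR adjusted p = 1) and -0.35 in cortex (SE 0.12, edgeR adjusted p = 0.83). Scaled to the sum over genes it was 0.57 in hippocampus and -0.16 in cortex. Leaving out 1 sample at a time gave 0.57 to 0.63 in hippocampus and -0.46 to -0.25 in cortex, where the value without tamoxifen sample A, with sample B as the whole arm, was called (edgeR adjusted p = 0.045). Counted as 16 libraries, which takes neighbouring libraries for replicates, Kcnj16 passed in hippocampus (edgeR adjusted p = 0.00051, 1.9% of all genes called) and in cortex (edgeR adjusted p = 0.014, 3.36% called). With the same libraries treated as correlated in limma voom it passed in hippocampus (adjusted p = 0.049, 0.0537% of all genes called), and not in cortex (adjusted p = 0.29, 0.0955% called).

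The difference of the effects, hippocampal minus cortical, was 0.95 for Kcnj16 (SE 0.17, unadjusted p = 0.00074, edgeR adjusted p = 0.889) and 0.60 for Kcnj10 (SE 0.24, unadjusted p = 0.042, edgeR adjusted p = 0.889). It was 0.73 for Kcnj16 and 0.40 for Kcnj10 when scaled to the sum over genes. The limma voom fit with correlated libraries called Kcnj16 (adjusted p = 0.0091, with 0.633% of all genes called) and not Kcnj10 (adjusted p = 0.051). Over 16 libraries edgeR called both (adjusted p = 0.018 for Kcnj10 and 0.00027 for Kcnj16, with 5.18% of all genes called), and DESeq2 neither (adjusted p = 0.997 for Kcnj10 and 0.097 for Kcnj16). The other 8 genes had values of -4.32 (Kcnj13, SE 4.2) to 0.25 (Kcnj11, SE 0.55), all with an edgeR adjusted p of 0.889 or more.

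**Figure D3:**
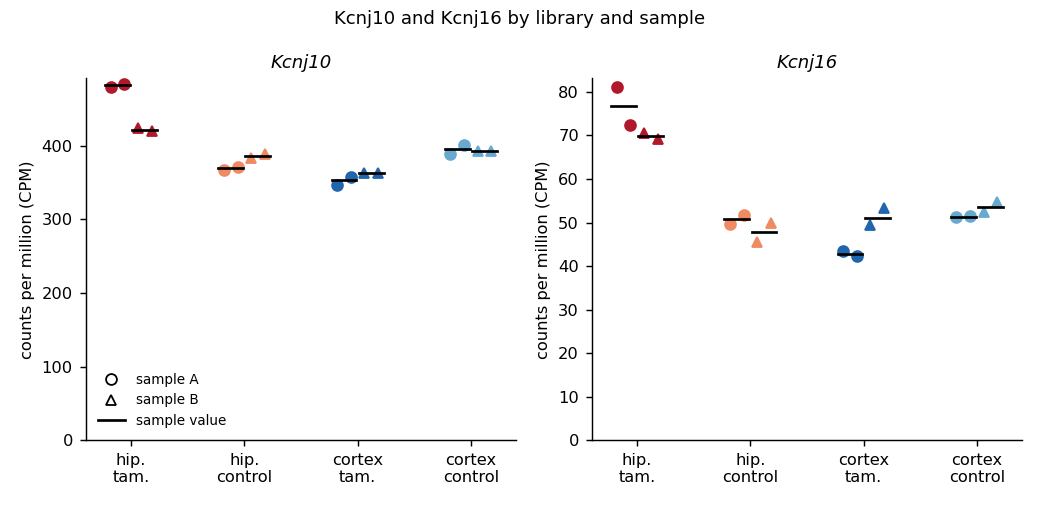
CPM of Kcnj10 and Kcnj16 in each library (circles for sample A, triangles for sample B) of the 4 groups, with a bar at each sample's value. For both genes the hippocampal tamoxifen samples lie highest in CPM (421 and 482 CPM for Kcnj10, 69.9 and 76.6 CPM for Kcnj16). Under TMM scaling this holds for Kcnj16 but not for Kcnj10.

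Markers of astrocytes, the main cells that use this pair of subunits, lay on the same sides of the controls. Of 11 astrocyte markers, 9 had a positive log2 difference in hippocampus (median 0.31, against -0.01 over all genes) and 0 of 11 in cortex (median -0.42, against 0.04), and 0 passed the edgeR test in either. Their summed level was 10279 to 11924 CPM in hippocampal tamoxifen samples against 9133 to 9308 CPM in controls, and 6703 to 8562 CPM in cortical tamoxifen samples against 8749 to 9109 CPM in controls. None of these markers was at 0. Other markers lay the same way in part. Of 7 markers of oligodendrocyte precursors, 7 were positive in hippocampus and 1 in cortex, and 7 were positive for the difference of effects (median 0.41). Of 9 endothelial markers, 4 were positive in hippocampus, 0 in cortex and 9 for the difference. Of 10 markers of oligodendrocytes, which also use Kcnj10, 0 were positive in hippocampus, 0 in cortex and 5 for the difference. Of 10 neuron markers, 9 were positive in hippocampus (median 0.25), 7 in cortex and 4 for the difference. Inhibitory neuron markers were 8 of 8 positive in hippocampus (median 0.51) and 7 of 8 in cortex. Of 10 mural markers, 0, 0 and 8 were positive in the same order, and of 8 microglia markers 0, 1 and 2. In such bulk samples fewer cells of a type and less RNA per cell cannot be told apart. Relative to the mean log2 level of the astrocyte markers, Kcnj10 stood at 0.21 and 0.28 in hippocampal tamoxifen samples against 0.10 and 0.25 in controls. In cortex Kcnj10 stood at 0.92 and 0.65 in tamoxifen samples against 0.70 and 0.67 in controls. These groups overlapped in both regions. Kcnj16 stood at -2.44 and -2.31 in hippocampal tamoxifen samples against -2.75 and -2.75 in controls, which did not overlap. In cortex it stood at -2.10 and -2.17 in tamoxifen samples against -2.23 and -2.19 in controls. These did not overlap either, but the nearest values, -2.17 and -2.19, almost met. The tamoxifen samples lay slightly higher there, opposite to the CPM of Kcnj16. The part of these cell types in the differences was not tested.

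Between regions neither gene of this pair was called under any scaling in edgeR with all 8 samples. Over 16 libraries edgeR called both in the controls (41.7% of all genes called) and Kcnj16 in the tamoxifen groups (32.9%). Leaving out 1 sample changed the calls in some fits, as counted further below. In the tamoxifen groups Kcnj16 was higher in hippocampus than in cortex (log2 difference 0.48, SE 0.12, edgeR adjusted p = 0.0890) and in the controls lower (-0.48, SE 0.12, edgeR adjusted p = 0.0604). Scaled to the sum over genes the values were 0.64 in the tamoxifen groups and -0.09 in the controls. DESeq2 called Kcnj16 in both (adjusted p = 0.023 in the tamoxifen groups, with 11.1% of all genes called, and 0.021 in the controls, with 16.8%). Limma voom with correlated libraries also called it in both (adjusted p = 0.0037 in the tamoxifen groups, with 16.9% of all genes called, and 0.0041 in the controls, with 20.5%). Kcnj10 gave 0.15 in the tamoxifen groups (SE 0.17, edgeR adjusted p = 0.658) and -0.44 in the controls (SE 0.17, edgeR adjusted p = 0.15), or 0.34 and -0.06 when scaled to the sum over genes. Limma voom called Kcnj10 in the controls (adjusted p = 0.0039). Without cortical tamoxifen sample B the Kcnj10 value in the tamoxifen groups was -0.04.

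Of 17 genes for astroglial potassium and water handling, 13 had a positive log2 difference with tamoxifen in hippocampus and 2 in cortex, and 0 passed in either (medians 0.20 and -0.39). The smallest p in hippocampus belonged to the potassium channel Kcnk1 (-0.55, SE 0.19) and the bicarbonate cotransporter Slc4a4 (0.45, SE 0.16), both with an edgeR adjusted p of 1. In cortex it belonged to the water channel Aqp4 (-0.62, SE 0.15) and the connexin Gjb6 (-0.42, SE 0.11), both with an edgeR adjusted p of 0.83. For the difference of effects 14 of 17 were positive (median 0.64, against -0.04 over all genes), led by the connexins Gja1 (0.80, SE 0.18) and Gjb6 (0.70, SE 0.16), with edgeR adjusted p = 0.889 each. Between regions 3 of 17 were called higher in hippocampus in the tamoxifen groups, where 1.12% of all genes were called in either direction. They were Gja1 (1.15, SE 0.13, edgeR adjusted p = 0.0303), Gjb6 (0.75, SE 0.11, edgeR adjusted p = 0.043) and Dag1 (0.78, SE 0.13, edgeR adjusted p = 0.048). Dag1 encodes the dystroglycan that anchors Aqp4 and Kcnj10 at astrocyte endfeet. Dag1 alone was called in the controls (0.93, SE 0.13, edgeR adjusted p = 0.0241), where 6.19% of all genes were called. Of the 17, 5 are also in the astrocyte marker list: Aqp4, Gja1, Gjb6, Slc1a2 and Slc1a3.

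The GIRK genes are neuronal, and Kcnj9 led them. Per exon length Kcnj9 was 65.9 to 80.9% of their sum in the 8 samples, Kcnj3 15.0 to 24.5% and Kcnj6 4.15 to 9.52%. Kcnj9 was at 19.9 and 14.2 CPM in hippocampal tamoxifen samples, against 11.9 and 11.8 CPM in hippocampal controls. Cortical levels were 23.2 and 63.6 CPM in tamoxifen samples, against 20.6 and 24.8 CPM in controls. Tamoxifen and control did not overlap in hippocampus and did in cortex, where sample B lay far above the rest. The log2 difference was 0.55 in hippocampus (SE 0.32, edgeR adjusted p = 1) and 0.65 in cortex (SE 0.32, edgeR adjusted p = 0.83), and without sample B the cortical value was 0.07.

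Kcnj9 was lower in hippocampus than in cortex under both treatments, with no overlap. The log2 difference was -1.43 in the tamoxifen groups (SE 0.32, edgeR adjusted p = 0.0739) and -1.33 in the controls (SE 0.32, edgeR adjusted p = 0.0574), and scaled to the sum over genes -1.35 and -0.94. DESeq2 called both (adjusted p = 0.00053 in the tamoxifen groups and 0.00089 in the controls). Without cortical tamoxifen sample B the tamoxifen-group value was -0.84. In the controls 5 of the 10 genes lay lower in hippocampus without overlap (13% of all genes did) and 2 higher (62.1%), and in the tamoxifen groups 3 lower (8.63%) and 3 higher (29.4%).

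Kcnj3, the subunit that most neuronal GIRK channels share, was at 9.56 and 6.37 CPM in hippocampal tamoxifen samples, against 6.15 and 6.99 CPM in controls. Its cortical levels were 6.94 and 29.7 CPM in tamoxifen samples, against 6.89 and 7.33 CPM in controls. Apart from cortical tamoxifen sample B all 7 samples lay between 6.15 and 9.56 CPM. The cortical log2 difference of 1.05 (SE 0.47, edgeR adjusted p = 0.83) was 0.01 without that sample, and 1.64 and called (edgeR adjusted p = 0.012) with sample B as the whole arm and the spread taken from the other groups. Hippocampus minus cortex was -1.24 in the tamoxifen groups (SE 0.48, edgeR adjusted p = 0.196), -0.20 without cortical sample B, and -0.50 in the controls (SE 0.47, edgeR adjusted p = 0.537). The files also list Gm26794, an antisense transcript that shares 1621 exon bases with Kcnj3 in GENCODE M21. It stood at 0.515 to 1.60 CPM, and the strand setting of the counting is not given in the sources used here.

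Kcnj6, a GIRK subunit known from midbrain dopamine neurons, was at 3.51 and 2.75 CPM in hippocampal tamoxifen samples, against 2.30 and 3.02 CPM in controls. It was at 2.67 and 6.88 CPM in cortical tamoxifen samples, against 2.31 and 2.26 CPM in controls. Cortical tamoxifen and control samples did not overlap (log2 difference 0.79, SE 0.33, edgeR adjusted p = 0.83), but without sample B the value was 0.27, and with sample B as the whole arm and the spread taken from the other groups it was 1.17 and called (edgeR adjusted p = 0.035). Hippocampus minus cortex was -0.69 in the tamoxifen groups (SE 0.33, edgeR adjusted p = 0.276; -0.17 without cortical sample B and -1.07 without cortical sample A) and -0.16 in the controls (SE 0.33, edgeR adjusted p = 0.788), where scaling to the sum over genes turned it to 0.22.

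Neuron markers were high in cortical tamoxifen sample B too: the 10 summed to 4642 CPM there, against 2230 CPM in tamoxifen sample A and 2513 to 2698 CPM in the controls. The 7 excitatory markers summed to 9552 CPM in sample B, against 5958 CPM in sample A and 6650 to 6712 CPM in the controls. With 2 samples in the group, whether this is a feature of the sample or of its treatment cannot be told apart.

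Of 16 tested partners that gate or regulate GIRK channels, 14 had a positive log2 difference with tamoxifen in hippocampus (48.7% of all genes did) and 11 in cortex (55.4%), and 0 passed in either. Neuron markers lay the same way, 9 of 10 positive in hippocampus and 7 of 10 in cortex, and their part in these counts was not tested. The smallest p in hippocampus belonged to the G protein regulator Rgs6 (0.38, SE 0.14) and the Go subunit Gnao1 (0.30, SE 0.14), with edgeR adjusted p = 1 each, and in cortex to the G protein gamma subunits Gng3 (0.61, SE 0.30) and Gng2 (0.58, SE 0.32), with edgeR adjusted p = 0.83 each. Between regions 15 of 16 were lower in hippocampus in the controls and 14 in the tamoxifen groups. In the tamoxifen groups, with 1.12% of all genes called in either direction, 2 of 16 were called lower. They were Rgs6 (-1.54, SE 0.15, edgeR adjusted p = 0.0271) and Rgs7 (-1.03, SE 0.13, edgeR adjusted p = 0.0368). In the controls, with 6.19% of all genes called, 5 of 16 were called lower. They were Rgs6 (-1.91, SE 0.15, edgeR adjusted p = 0.0103), Rgs7 (-1.23, SE 0.13), its anchor Rgs7bp (-1.33, SE 0.28), the beta subunit Gnb1 (-0.73, SE 0.13) and Gnao1 (-0.71, SE 0.14). Rgs6 and Rgs7 encode the regulators that shut GIRK currents off. The list's medians were -0.57 in the tamoxifen groups and -0.55 in the controls, against -0.03 and 0.00 over all genes.

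Of 18 receptors that can open GIRK channels, 16 had a positive log2 difference with tamoxifen in hippocampus (48.7% of all genes did). In cortex 15 did (55.4% of all genes), and 0 were called in either region. Neuron markers lay the same way, 9 of 10 positive in hippocampus and 7 of 10 in cortex, and their part was not tested. The cortical tamoxifen group includes sample B, where neuron markers summed to 4642 CPM, against 2230 CPM in sample A. Among the receptors the smallest p in hippocampus belonged to the glutamate receptor Grm3 (0.31, SE 0.11, edgeR adjusted p = 1) and the GABA receptor Gabbr1 (0.31, SE 0.17, edgeR adjusted p = 1). In cortex it belonged to the opioid receptor Oprk1 (2.18, SE 0.70, edgeR adjusted p = 0.83) and Grm3 (-0.34, SE 0.11, edgeR adjusted p = 0.83). For the difference of effects 7 of 18 were positive (45.8% of all genes were). There 1 receptor had an unadjusted edgeR p under 0.05, Grm3 (0.65, SE 0.16, edgeR adjusted p = 0.889). Of 11 astrocyte markers, 9 were positive in hippocampus, 0 in cortex and 11 for the difference, and their part was not tested. The dopamine receptor Drd2 was called lower in hippocampus in the tamoxifen groups (-4.09, SE 0.55, edgeR adjusted p = 0.0368) and in the controls (-4.70, SE 0.57, edgeR adjusted p = 0.0187). In the controls Oprd1 (-1.48, SE 0.26, edgeR adjusted p = 0.0334) and Grm3 (-0.53, SE 0.11, edgeR adjusted p = 0.0447) were called lower too. Over all genes 1.12% were called between regions in the tamoxifen groups and 6.19% in the controls. Neuron markers were lower in hippocampus as well: 10 of 10 in the tamoxifen groups (median -1.06, 1 called) and 10 of 10 in the controls (median -0.80, 2 called), and the part of the neuronal share in these values was not tested.

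Kcnj4, the strong rectifier of forebrain neurons, was at 15.9 and 11.2 CPM in hippocampal tamoxifen samples, against 11.2 and 11.1 CPM in hippocampal controls. Its cortical levels were 19.8 and 76.5 CPM in tamoxifen samples, against 24.4 and 23.3 CPM in controls. All 4 hippocampal samples lay below all 4 cortical ones. Hippocampus minus cortex was -1.88 in the tamoxifen groups (SE 0.43, edgeR adjusted p = 0.0791; -0.95 without cortical sample B) and -1.48 in the controls (SE 0.43, edgeR adjusted p = 0.0848), and -1.83 and -1.09 when scaled to the sum over genes. DESeq2 called both (adjusted p = 0.00015 in the tamoxifen groups and 0.0029 in the controls). Tamoxifen minus control was 0.30 in hippocampus (SE 0.42, edgeR adjusted p = 1) and 0.70 in cortex (SE 0.42, edgeR adjusted p = 0.83), and the cortical value was -0.23 without sample B, and 1.26 and called with sample B as the whole arm and the spread taken from the other groups (edgeR adjusted p = 0.012).

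Kcnj2, the strong rectifier first known from muscle and also used by microglia and endothelium, was low. It was at 4.74 and 4.18 CPM in hippocampal tamoxifen samples, against 3.58 and 7.64 CPM in controls, and at 3.10 and 5.63 CPM in cortical tamoxifen samples, against 3.79 and 3.12 CPM in controls. Groups overlapped in every contrast. Tamoxifen minus control was -0.31 in hippocampus (SE 0.36) and turned to 0.38 without control sample B. In cortex it was 0.10 (SE 0.36), and neither passed (edgeR adjusted p = 1 and 0.951). Kcnj2 lies 38.2 kb downstream of Kcnj16 on chromosome 11 with no other gene of the files between them.

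Of the KATP pores, Kcnj8 belongs to vessels and Kcnj11 to neurons. Kcnj8 was at 6.03 and 5.19 CPM in hippocampal tamoxifen samples, against 6.29 and 6.76 CPM in hippocampal controls. In cortex it was at 2.43 and 2.89 CPM in tamoxifen samples, against 2.93 and 3.18 CPM in controls. Every hippocampal sample lay above every cortical one. In both regions the tamoxifen samples lay below the controls, as for 23.6% of all genes in hippocampus and 6.29% in cortex. In cortex the nearest values were 2.89 and 2.93 CPM, and in both regions single libraries of the groups overlapped. Hippocampus minus cortex was 0.91 in the tamoxifen groups (SE 0.18, edgeR adjusted p = 0.0587) and 0.71 in the controls (SE 0.18, edgeR adjusted p = 0.0584). Scaled to the sum over genes it was 1.08 in the tamoxifen groups and 1.10 in the controls, where it was called, and DESeq2 called both (adjusted p = 0.0011 in the tamoxifen groups and 0.013 in the controls). Tamoxifen minus control was -0.19 in hippocampus (SE 0.17, edgeR adjusted p = 1) and -0.39 in cortex (SE 0.18, edgeR adjusted p = 0.83).

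Markers of mural cells, pericytes and smooth muscle, were higher in hippocampus as Kcnj8 was. All 10 were higher in hippocampus in the tamoxifen groups (median 0.66, 0 called) and in the controls (median 0.35, 1 called, Vtn). Their sum was 505 to 544 CPM in hippocampal tamoxifen samples and 555 to 617 CPM in hippocampal controls, against 269 to 325 CPM in cortical tamoxifen samples and 352 to 367 CPM in cortical controls, and none was at 0. Relative to their mean log2 level Kcnj8 stood at -2.19 and -2.18 in hippocampal tamoxifen samples and -2.13 and -2.17 in hippocampal controls. It stood at -2.62 and -2.12 in cortical tamoxifen samples and -2.49 and -2.35 in cortical controls. Microglia markers were higher in hippocampus too, 8 of 8 in the tamoxifen groups (median 0.85, 0 called) and in the controls (median 0.99, 6 called). Over all genes 1.12% were called between regions in the tamoxifen groups and 6.19% in the controls. In the tamoxifen groups 7 of 7 oligodendrocyte precursor, 11 of 11 astrocyte and 9 of 9 endothelial markers were higher. In the controls 5, 6 and 1 were. Neuron markers were 0 of 10 higher in both. The part of these cell types was not tested.

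Kcnj11 was at 8.04 and 3.00 CPM in hippocampal tamoxifen samples, against 4.19 and 4.05 CPM in hippocampal controls. In cortex it was at 8.79 and 9.33 CPM in tamoxifen samples, against 6.72 and 7.31 CPM in controls. Cortical tamoxifen samples lay above their controls, and hippocampal tamoxifen samples on both sides of theirs. Tamoxifen minus control was 0.44 in hippocampus (SE 0.39, edgeR adjusted p = 1), but -0.39 without tamoxifen sample A, and 0.19 in cortex (SE 0.39, edgeR adjusted p = 0.913). Hippocampus minus cortex was -0.91 in the tamoxifen groups (SE 0.39, edgeR adjusted p = 0.244) and -1.15 in the controls (SE 0.40, edgeR adjusted p = 0.118). The tamoxifen-group value was -1.73 without hippocampal sample A and -0.33 without hippocampal sample B. In the controls DESeq2 (adjusted p = 0.026) and limma voom (adjusted p = 0.031) called Kcnj11, and limma voom also in the tamoxifen groups (adjusted p = 0.035). The files give Kcnj11 an exon length of 1172 bases and Kcnj8 2185 bases, which enter the per-length ratios.

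The KATP channel needs a sulfonylurea receptor beside its pore, and each receptor gene neighbours a pore gene: Abcc9 lies 16.5 kb from Kcnj8 on chromosome 6 and Abcc8 4.63 kb from Kcnj11 on chromosome 7. Abcc9 was at 15.7 and 15.6 CPM in hippocampal tamoxifen samples, 13.4 and 18.5 CPM in hippocampal controls, 8.14 and 6.07 CPM in cortical tamoxifen samples, and 7.93 and 9.57 CPM in cortical controls. Like Kcnj8, it was higher in every hippocampal than in every cortical sample. Hippocampus minus cortex was 0.93 for Abcc9 in the tamoxifen groups (SE 0.31, edgeR adjusted p = 0.153) and 0.49 in the controls (SE 0.31, edgeR adjusted p = 0.345). Abcc8 was at 3.45 and 2.96 CPM in hippocampal tamoxifen samples, 2.87 and 2.88 CPM in hippocampal controls, 2.74 and 10.1 CPM in cortical tamoxifen samples, and 2.48 and 3.07 CPM in cortical controls. Its high value was that of cortical tamoxifen sample B, the sample rich in neuron markers.

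Ratios between related subunits do not depend on library scaling. Taken per exon length, 6 ratios were compared between the 4 hippocampal and the 4 cortical samples by two-sided exact permutation tests (the smaller tail doubled), adjusted over the 6. Kcnj8 to Kcnj11 was 0.402 to 0.928 in hippocampus and 0.148 to 0.234 in cortex (exact permutation p = 0.0286, the smallest 4 against 4 can give, adjusted p = 0.0571). Abcc9 to Abcc8 was 2.99 to 4.2 in hippocampus and 0.394 to 2.10 in cortex (exact permutation p = 0.0286, adjusted p = 0.0571). Kcnj4 to Kcnj2 was 3.69 to 8.49 in hippocampus and 16.2 to 34.4 in cortex (exact permutation p = 0.0286, adjusted p = 0.0571). These 3 ratios did not overlap between regions. Kcnj9 to Kcnj3 was 2.69 to 3.56 in hippocampus and 3.41 to 5.4 in cortex (exact permutation p = 0.0571, adjusted p = 0.0857), with cortical tamoxifen sample B at the low end. Kcnj6 to Kcnj3 (exact permutation p = 0.0857) and Kcnj16 to Kcnj10 (exact permutation p = 0.257) overlapped. Tamoxifen and control samples were pooled for this test. In both the tamoxifen groups and the controls, 10 of 10 mural and 8 of 8 microglia markers were higher in hippocampus, and 10 of 10 neuron markers lower. The part of the cell mix in these ratios was not tested.

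With tamoxifen, Kcnj16 to Kcnj10 was 0.219 and 0.228 in hippocampal tamoxifen samples, against 0.189 and 0.170 in hippocampal controls, without overlap. In cortex it was 0.167 and 0.194 in tamoxifen samples, against 0.179 and 0.188 in controls, which overlapped. The exact permutation p was 0.333 in hippocampus, the smallest 2 against 2 samples can give, so no such comparison could pass. In cortex Kcnj8 to Kcnj11 was 0.148 and 0.166 in tamoxifen samples, against 0.234 and 0.233 in controls, also without overlap and with the same smallest p.

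**Figure D4:**
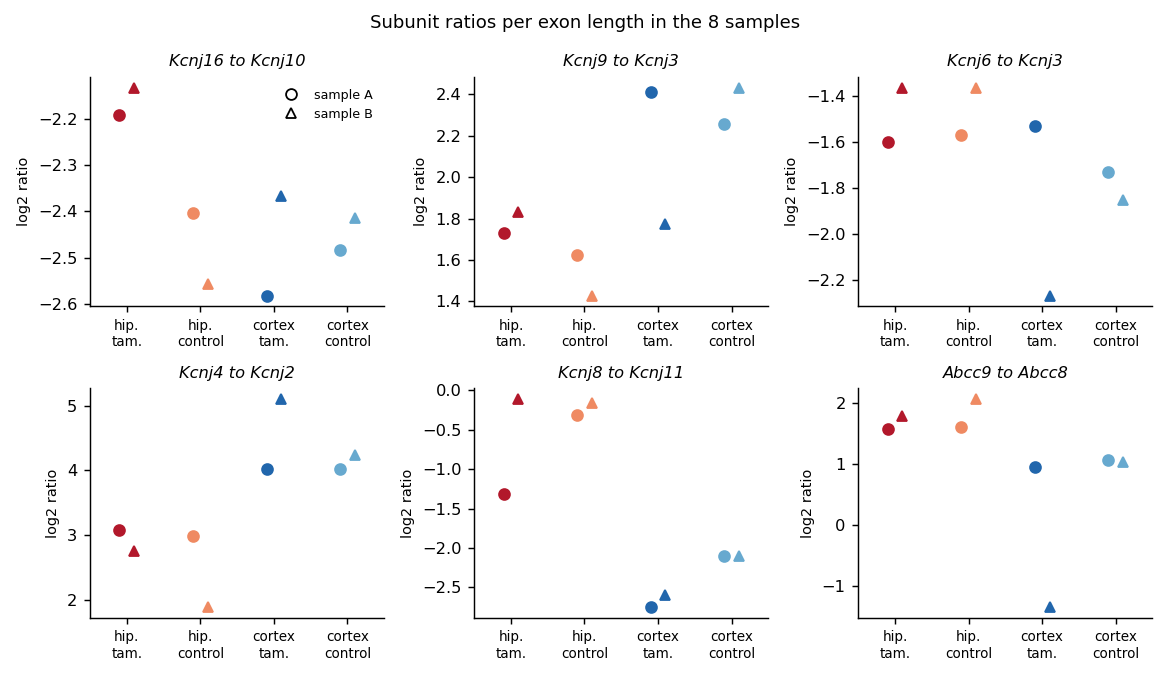
Log2 ratio of 6 pairs of subunits, per exon length, in the 8 samples of the 4 groups (circles for sample A, triangles for sample B; axes do not start at 0). Kcnj8 to Kcnj11 and Abcc9 to Abcc8 lie higher in all hippocampal samples, Kcnj4 to Kcnj2 lies lower, and Kcnj16 to Kcnj10 is highest in the hippocampal tamoxifen samples.

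Kcnj13 differed widely between samples A and B in 3 of the 4 groups. It was at 0.124 and 24.2 CPM in hippocampal tamoxifen samples, against 54.4 and 24.7 CPM in hippocampal controls. It was at 15.9 and 0.0100 CPM in cortical tamoxifen samples, against 2.52 and 0 CPM in cortical controls. Sample A was high and B near 0 in both cortical groups, and the reverse held in the hippocampal tamoxifen group. The fit gave log2 differences of -1.62 in hippocampus (SE 2.87, edgeR adjusted p = 1) and 2.70 in cortex (SE 3.07, edgeR adjusted p = 0.861), which moved to -7.22 in cortex without tamoxifen sample A, and in hippocampus to -8.31 without tamoxifen sample B and -0.63 without tamoxifen sample A. Hippocampal and cortical controls did not overlap, and the log2 difference was 4.58 (SE 3.30, edgeR adjusted p = 0.424; 3.60 to 14.83 with 1 sample left out). In the tamoxifen groups hippocampus and cortex overlapped (0.26, SE 2.82, edgeR adjusted p = 0.974).

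The same 5 samples were high, and the same 3 low, for choroid plexus markers. Ttr, the transthyretin made by that epithelium, was at 37.8 and 7488 CPM in hippocampal tamoxifen samples, 15953 and 7345 CPM in hippocampal controls, 4701 and 3.18 CPM in cortical tamoxifen samples, and 876 and 3.88 CPM in cortical controls. Relative to the mean log2 level of 10 such markers, none of which was at 0, Kcnj13 stood at -2.33 to -1.96 in the 5 samples in which these markers summed to 962 CPM or more. In the other 3 samples, where Kcnj13 was at or below 0.124 CPM, the offset of 0.5 CPM added before taking logs is larger than the level itself, and no relative value is read. Kcnj13 lies within the gene Gigyf2 on the opposite strand, and their exons share 623 bases in GENCODE M21. Gigyf2 was at 38.1 to 50.5 CPM in every sample, also where Kcnj13 was near 0.

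**Figure D5:**
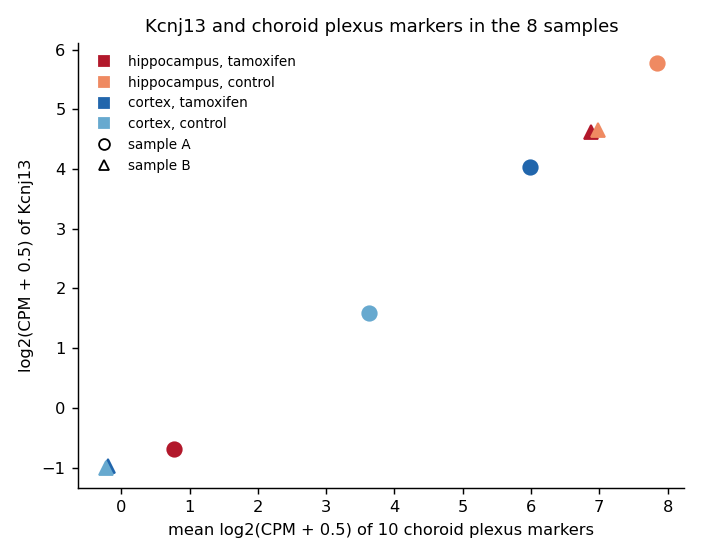
Log2(CPM + 0.5) of Kcnj13 against the mean of the same measure over 10 choroid plexus markers in the 8 samples, coloured by group, with circles for sample A and triangles for sample B. The 5 samples with marker sums of 962 CPM or more hold 2.52 to 54.4 CPM of Kcnj13 and the other 3 hold 0 to 0.124 CPM.

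Of the other 5 Kcnj genes in the files, Kcnj1, the kidney channel, had 0 counts in all 16 libraries. Kcnj5, the cardiac GIRK subunit, was at 0.0838 to 0.295 CPM and Kcnj15 at 0.0185 to 0.111 CPM over the 8 samples. Kcnj12, a further Kir2 subunit, was at 4.48 and 2.49 CPM in hippocampal tamoxifen samples, 2.55 and 3.67 CPM in hippocampal controls, 3.29 and 7.06 CPM in cortical tamoxifen samples, and 3.30 and 3.03 CPM in cortical controls. Its highest value was again that of cortical tamoxifen sample B. Kcnj14, the remaining Kir2 subunit, was at 1.76 to 4.84 CPM. None of the 4 tested passed in any contrast, and the smallest edgeR adjusted p was 0.214 (Kcnj14, hippocampus minus cortex in controls, -0.90, SE 0.42).

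For each gene the 3 genes with the most similar profile were taken, by the root mean square difference (RMS) of centred log2(CPM + 0.5) over the 8 samples among 12705 genes, as a description with no test. Kcnj10 was nearest to Mtss1l (RMS 0.05), Psat1 and Gng12, with a spread of its own of 0.13. Kcnj16 was nearest to Slc13a5 (0.09), Asrgl1 and the astrocyte marker Aldoc, with a spread of 0.26. Kcnj9 was nearest to the channel genes Kcnf1 (0.06) and Scn1a and to Dock3, Kcnj3 to Sidt1 (0.07), Chgb and Slitrk1, and Kcnj6 to Csrnp2 (0.06), Sel1l3 and Cacna1e. Kcnj4 was nearest to AI593442 (0.11), Cacng3 and Chrm4, Kcnj2 to Ptprj (0.17), Pik3r6 and Traf5, Kcnj8 to Klf3 (0.07), Lpcat3 and Nfatc1, and Kcnj11 to Gpr153 (0.21), Hipk4 and Cartpt. Kcnj13, with a spread of 2.67, was nearest to Ccdc135 (0.15), the choroid plexus factor Otx2, itself in the marker list, and the transporter Slc13a4.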

How the data were processed

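Total RNA of 16 libraries in 4 groups was sequenced. Whole-number read counts per gene were deposited; reads had been aligned with STAR to mm10 and counted with HTSeq, per the submitters' processing notes. For versions, annotation release and strand setting, the labels and headers state nothing. The files also hold RPKM values as deposited by the authors, which were not used. Libraries had 33236178 to 57195203 counts in genes. Multiply aligned reads were 27.5 to 35.4% and reads in no feature 3.65 to 7.93% of all entries, and both stayed out of the totals.

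Libraries 1 with 2 and 3 with 4 of each group were summed because their counts were far more alike than those of other libraries, a choice made from the values. The 8 samples were fitted in 1 edgeR 4.0.16 quasi-likelihood model (R 4.3.3, TMM scaling, filterByExpr, 18074 genes), tested on simulated data, with Benjamini-Hochberg adjustment over all genes at 0.05. Standard errors are the log2 difference over the root of F. Alternatives used DESeq2 1.42.0, limma 3.58.1, other scalings, no filter, 16 libraries, a replicate block and each sample left out. Ratios were tested by exact permutation. Named are the 10 genes, other Kcnj genes, KATP receptors, called list genes or else the 2 smallest p per list, and the 3 most similar genes. The genes and lists were chosen with earlier results of these data known.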

Additional observations from a re-analysis of the deposited data

Results flagged for a closer look

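Kcnj10 and Kcnj16 lay on opposite sides of their controls in the regions, above them in both hippocampal tamoxifen samples and below them in both cortical ones. For Kcnj16 in cortex the nearest values were close, 51.1 CPM with tamoxifen and 51.3 CPM in controls. The difference of the tamoxifen effects, hippocampal minus cortical, was 0.60 on the log2 scale for Kcnj10 and 0.95 for Kcnj16. Neither passed the interaction test in edgeR (adjusted p = 0.889 each).

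In the hippocampal tamoxifen group the highest of the 4 libraries for Kcnj2 had 5.45 CPM, far from the nearest at 4.27 CPM when the lowest was at 4.07 CPM. It was the only such library among 40 groups of 4 libraries screened by Dixon's test. Chance gives about 1 in 20 for 4 independent values, which these libraries, alike in neighbouring pairs, are not. The neighbour of the high library was the lowest one, at 4.07 CPM.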

How the results depend on the processing

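None of the 10 genes was called in the 5 contrasts with RLE size factors or without the count filter, as in the 8-sample edgeR fit. Taking 16 libraries as separate samples called 1 gene in hippocampus (1.9% of all genes called), 1 in cortex (3.36%) and 2 for the difference of effects (5.18%). Between regions it called 7 in the tamoxifen groups (32.9%) and 6 in the controls (41.7%). Limma voom with correlated libraries called 1 (0.0537%), 0 (0.0955%), 1 (0.633%), 6 (16.9%) and 5 (20.5%) in the same order. DESeq2 called 5 in each region contrast (11.1% and 16.8%). Scaling to the sum of gene counts, with or without mitochondrial genes, called 1 (Kcnj8) between regions in controls (11.4% and 9.33% of all genes). Leaving out 1 sample gave 0 to 6 calls in cortex, 0 to 6 between regions in the tamoxifen groups and 0 to 5 in the controls. Both counts of 6 came without cortical tamoxifen sample A (10.7% of all genes called in cortex, 21.7% between regions), where sample B is the whole arm and is assumed to vary like the other groups. Without cortical tamoxifen sample A or B, 5 were called between regions in controls (20.7% each), and without hippocampal tamoxifen sample A or B, 1 (Kcnj11; 2.15% and 2.3%).

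Some log2 differences changed sign. Scaled to the sum of gene counts, Kcnj8 for the difference of effects was -0.019, Kcnj6 between regions in controls was 0.22 (0.087 without mitochondrial genes) and Kcnj2 between regions in the tamoxifen groups was 0.029 (0.056). Leaving out samples, the cortical tamoxifen difference ranged from -0.11 to 0.29 for Kcnj2, -0.23 to 1.26 for Kcnj4, -0.010 to 0.37 for Kcnj11 and -7.22 to 12.95 for Kcnj13. In hippocampus it ranged from -0.78 to 0.38 for Kcnj2 and -0.39 to 0.96 for Kcnj11. The difference of effects ranged from -0.89 to 0.28 for Kcnj2, -1.34 to 0.29 for Kcnj3, -0.96 to 0.53 for Kcnj4, -0.51 to 0.48 for Kcnj9, -0.58 to 0.79 for Kcnj11 and -14.57 to 5.6 for Kcnj13. Between regions in controls it ranged from -0.37 to 0.80 for Kcnj2 and -0.41 to 0.058 for Kcnj6, and in the tamoxifen groups from -0.27 to 0.13 for Kcnj2, -0.042 to 0.39 for Kcnj10 and -6.36 to 10.17 for Kcnj13. The cause was not tested. In ratios, 24 of 60 alternative values lost the smallest possible p, since with the smaller tail doubled 3 against 4 samples cannot go below 0.0571.

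With the sample letter as a replicate block, 0 of 10 genes were called in each contrast, and 72 genes (0.398%) between regions in controls, against 1118 without it. Differences A minus B correlated between groups at -0.56 to 0.45 over 8000 genes. The sign differed between pairs of groups, so a shared letter was not taken as a pairing. Whether samples of different groups belong together in another way was not tested.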
